A study of Arabidopsis thaliana with 3 samples.

Results

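The induction of FE-GR by dexamethasone (Dex) was measured on 1 of 3 Agilent arrays of Arabidopsis whole seedlings, each hybridised with a Cy5 and a Cy3 sample. It set 35S::FE-GR line #5 given Dex (1 µM, seedlings submerged for 2 h) in Cy5 against the mock-treated 35S::FE-GR line #5 in Cy3, both at day 7 and zeitgeber time 14 h. The other 2 arrays set the untreated fe-1 mutant (Cy5) against wild type (L.er, Cy3), as biological replicates 1 and 2 at zeitgeber time 15 h on day 7. All plants grew under long days at 22°C on medium with 1% sucrose. The 35S promoter is active in most cell types and does not confine FE-GR to the phloem, and #5 is a single transgenic line. Both channels of the array carried FE-GR. No Dex-treated seedlings without FE-GR were on these arrays, and no array had the dyes exchanged, so the activity of FE-GR, an effect of Dex itself and an effect of the dye cannot be told apart.

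FE is a MYB-CC transcription factor of the phloem, the tissue that carries sugars, amino acids and signals through the plant, and it is listed as APL (AT1G79430) in the gene table. The MYB-CC family also holds PHR1, the central regulator of the phosphate starvation response, in which plants release phosphate from nucleic acids and phospholipids and adjust its uptake and transport. A transcription factor fused to the hormone-binding part of the glucocorticoid receptor (GR) is held outside the nucleus until Dex binds it, so Dex gives a switch for the factor's activity. The comparison addresses which transcripts differed soon after FE-GR was released into the nucleus.

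Of 43603 probes, 33363 (76.5%) were well above background in Dex, in mock or in both and were kept. Of these, 28514 matched a locus and gave 20497 genes, each read from its brightest kept probe, out of 25383 loci on the array. In the Dex channel 74.8% of spots were well above background, and in the mock channel 75.1% were. No spot was saturated and 8 were left out. The log2 ratio (Dex over mock) varied little between spots of one probe, with a median SD of 0.0407 over 24 probes, but 1 array holds no biological replicate. Differences from this array therefore have no replicate check and no test, and a gene is called higher or lower where its ratio was at least 2-fold, and level where it lay within 2-fold. Defining markers of the labelled tissue were present in both channels: RBCS1A, RCA and LHCB1.1 for green tissue, SUC2 and SEOR1 for phloem, XCP1 for xylem, EXPA7 and COBL9 for root hairs, KAT1 for guard cells and STM for the meristem. The seed storage genes CRU3 and CRA1 were not among the measured genes.

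With Dex, 733 genes (3.58% of those measured) were higher by 2-fold or more than in mock, and 604 (2.95%) were lower by 2-fold or more. The median log2 ratio of all genes was 0.0048, and 85.0% of genes lay within 1.5-fold. The large differences were mostly higher with Dex: past 4-fold, 212 genes were higher and 55 lower, past 8-fold 64 were higher and 5 lower, and past 16-fold 22 were higher and 1 lower. The smallest log2 ratio counted as higher was 1.0005 and the next below it 0.9998, while the corresponding values for lower were -1.0016 and -0.9999. The mock channel was not well above background for 22 of the 733 higher genes, and the Dex channel was not for 5 of the 604 lower genes. With each array centred on its median in place of the intensity-dependent loess curve, 1088 genes were higher and 389 lower. Calls that were higher then made up 73.7% of all calls, against 54.8% here, and the median of all genes was 0.219.

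**Figure D1:**
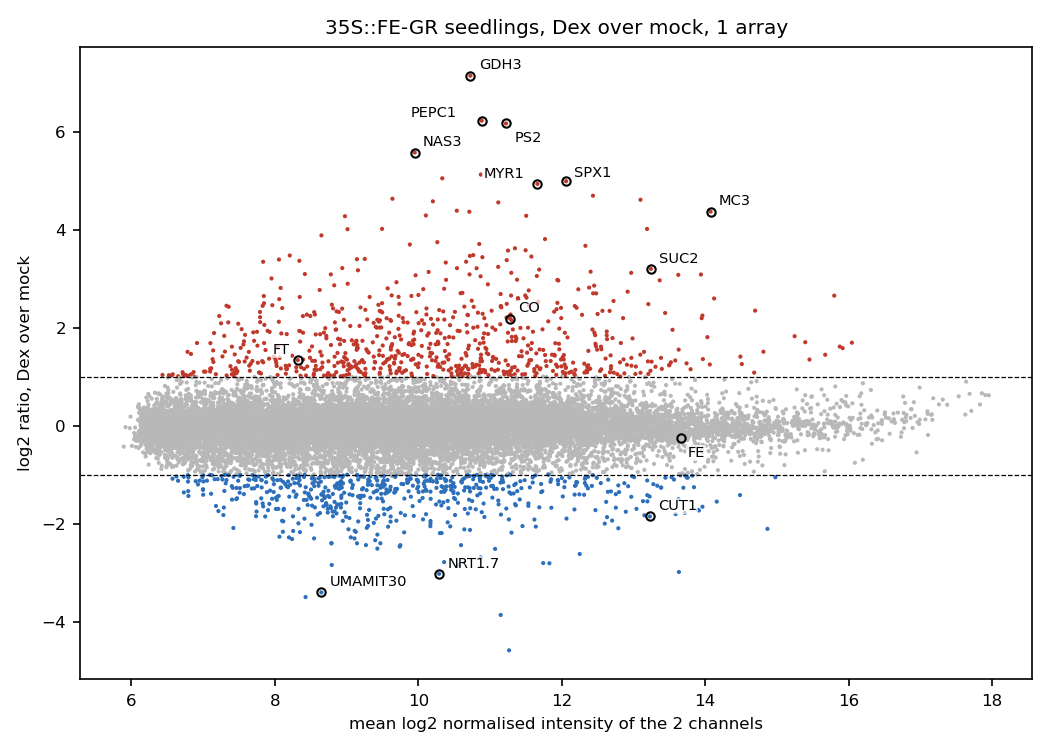
Log2 ratio of Dex over mock for each measured gene (vertical axis) against the mean log2 intensity of both channels (horizontal axis). Red points are the 733 genes counted as higher with Dex, blue points the 604 counted as lower, and dashed lines mark 2-fold. The upper side reaches a log2 ratio of 7.14 (GDH3) and the lower side -4.59.

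The highest ratio belonged to GDH3, a subunit of glutamate dehydrogenase, with a normalised intensity of 20098 with Dex against 142.7 in mock, a 141-fold difference. It was followed by PEPC1, a phosphoethanolamine and phosphocholine phosphatase (16323 with Dex, 218.9 in mock, 74.6-fold), and by the pyrophosphatase PS2 (20226 with Dex, 282.2 in mock, 71.7-fold). NAS3, which makes the metal chelator nicotianamine, read 6823 with Dex and 143.5 in mock. All 4 were well above background in both channels, and all 3 probes of PS2 gave log2 ratios between 4.47 and 6.16. Each normalised intensity contains an added offset of 50, so the fold of a gene this dim in mock is understated.

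Others among the 30 highest were MC3, a metacaspase (78350 with Dex, 3802 in mock, 20.6-fold), UCP5, the mitochondrial dicarboxylate carrier also named DIC1 (13024 with Dex, 932 in mock), and MYB62, a MYB factor linked to phosphate starvation (1541 with Dex, 104.7 in mock). AAP8, an amino acid permease, read 2072 with Dex and 128.9 in mock. SAL2 was 34.8-fold higher with Dex. The gene table gives no symbol for 13 of the 30, among them AT5G20790 (33.0-fold) and AT5G66440 (24.4-fold). The last of the 30, AT5G46230, was 11.9-fold higher, so the whole group lay far above the 2-fold line.

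Ratios on the lower side were smaller. AT3G28270, which has no symbol in the table, had 502.2 with Dex against 12069 in mock, a 24.0-fold difference, and AT5G62360 was 14.6-fold lower. The 3 probes of AT3G28270 gave log2 ratios between -4.587 and -2.578, and the 4 probes of AT5G62360 between -3.865 and -2.014. UMAMIT30, of a family of amino acid exporters, read 123.3 with Dex and 1307 in mock (10.6-fold lower). NRT1.7, which loads nitrate into the phloem of old leaves, read 438.8 with Dex and 3574 in mock (8.14-fold lower), and its other probe gave a log2 ratio of -1.96. KCS12, of the enzyme family that elongates very-long-chain fatty acids, read 165.5 with Dex and 1189 in mock. DCF, which adds ferulate to cutin, read 1373 with Dex and 9624 in mock. The transporter ABCG19 was 5.70-fold lower, the factor RAP2.9 5.43-fold, the calmodulin-like CML38 5.28-fold and the glycosyltransferase UGT72B3 5.28-fold. For AT5G37540, also among the 30 lowest, the second probe gave a log2 ratio of 0.04, so its probes disagreed.

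**Figure D2:**
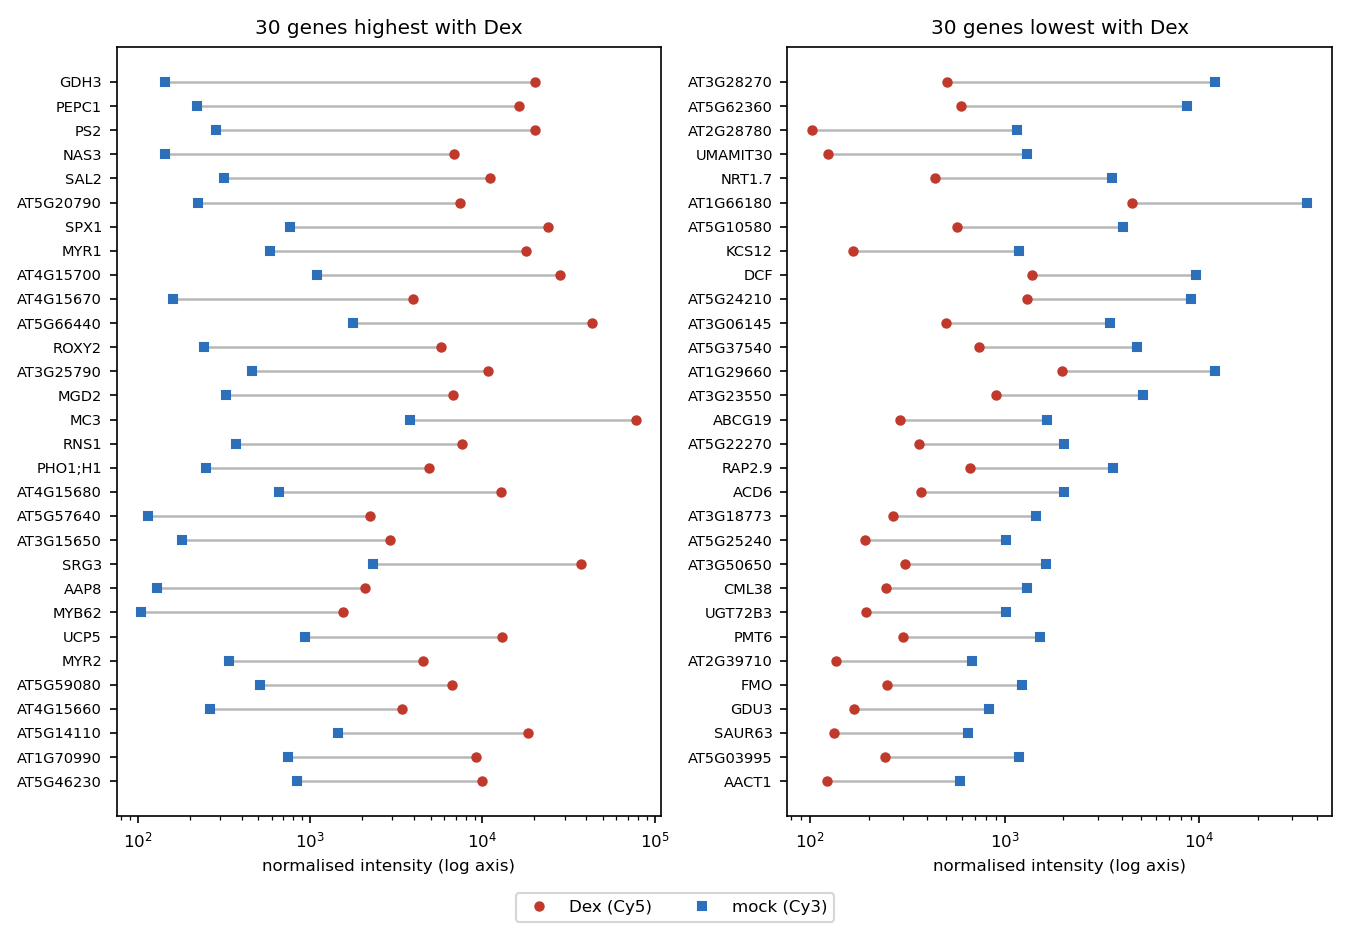
Normalised intensity on a log axis for the 30 genes with the highest ratio (left) and the 30 with the lowest (right); circles are the Dex channel, squares the mock channel, and a line joins both values of a gene. GDH3 spans 20098 with Dex and 142.7 in mock, and the span is widest on the lower side for AT3G28270.

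Genes were then read by function, over 35 lists that hold 564 genes. Of these, 522 were measured, and 94 were higher with Dex by 2-fold or more and 35 lower. Over all measured genes, 3.58% were higher and 2.95% lower. The lists were chosen with earlier results of these data known, so a list count above those shares is a description and not a test. Lists of the phosphate starvation response are given first. Of 16 genes of phosphate sensing and signalling, 8 were higher and 2 lower (median log2 ratio 0.70). SPX1, an intracellular phosphate sensor that binds PHR1, read 24048 with Dex and 758.9 in mock (31.7-fold). Its relatives SPX2 (3.88-fold), SPX4 (2.97-fold) and SPX3 (2.66-fold) were also higher. PHO1;H1, a phosphate exporter of the same family as PHO1, read 4867 with Dex and 249.4 in mock (19.5-fold), whereas PHO1, which exports phosphate into the xylem, read 791 with Dex and 1681 in mock (2.13-fold lower). ITPK1, an inositol phosphate kinase, was 3.59-fold higher and PHF1, which helps phosphate transporters leave the endoplasmic reticulum, 2.44-fold. PHO2, which marks phosphate transporters and PHO1 for degradation, was 2.14-fold higher, while NLA, a ubiquitin ligase that also acts on phosphate transporters, read 1618 with Dex and 4601 in mock (2.84-fold lower). The non-coding RNAs IPS1 and AT4, which bind the microRNA that represses PHO2, had log2 ratios of -0.04 and -0.22.

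Phosphate transporters were mostly level. Among 12 measured phosphate transporters, 1 was higher and 1 lower (median log2 ratio 0.10). The higher one was G3Pp1, a glycerol-3-phosphate permease (3353 with Dex, 381.9 in mock, 8.78-fold), and the lower one was the root transporter PHT1;4 (187.9 with Dex, 449.6 in mock). PHT1;1, the abundant root uptake transporter, read 8280 with Dex and 6543 in mock, and the log2 ratio of PHT1;2 was 0.07. A further 4 of the list were not measured.

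Enzymes that release phosphate were higher or level. Of 18 measured phosphatases, ribonucleases, phosphoenolpyruvate carboxylases and their kinases, 8 were higher and 0 lower (median log2 ratio 0.57). Beside PEPC1 and PS2 these were the secreted ribonuclease RNS1 (7608 with Dex, 369.8 in mock, 20.6-fold) and the purple acid phosphatases PAP17 (6806 with Dex, 721.4 in mock) and PAP10 (16068 with Dex, 1823 in mock). The carboxylase PPC3 read 13662 with Dex and 2696 in mock, and the carboxylase kinases PPCK2 (2.84-fold) and PPCK1 (log2 ratio 1.26) were closer to the 2-fold line. Of 17 measured genes of membrane lipid remodelling, by which galactolipids and sulfolipids replace phospholipids, 8 were higher and 0 lower (median log2 ratio 0.66). The galactolipid synthases MGD2 (6789 with Dex, 325.1 in mock, 20.9-fold) and MGD3 (716.8 with Dex, 102.3 in mock, 7.01-fold) differed most, together with SRG3, a glycerophosphodiester phosphodiesterase also named GDPD1 (37505 with Dex, 2325 in mock, 16.1-fold). The other probe of SRG3 gave a log2 ratio of 2.325, against 4.012 for the probe read. The phospholipase PLDP2 was 6.80-fold higher, GDPD2 5.96-fold, the phosphatidate phosphatase PAH1 2.41-fold, the sulfolipid synthase SQD2 2.18-fold and the galactolipid synthase DGD1 2.09-fold.

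The MYB-CC family itself divided. Of 13 measured members, 5 were higher and 0 lower: MYR1 read 17881 with Dex and 586.4 in mock (30.5-fold), MYR2 4503 with Dex and 336.5 in mock (13.4-fold), and PHL1, a close relative of PHR1, 9347 with Dex and 1769 in mock (5.28-fold). AT1G69580 was 4.99-fold and AT5G06800 2.68-fold higher. PHR1 was level, at 1387 with Dex and 1400 in mock. FE read 11838 with Dex and 14196 in mock, and its 3 probes gave log2 ratios between -0.31 and -0.26. On the fe-1 arrays, on another slide and scaled separately, the same probe of FE read 987.9 in wild type and 876.4 in fe-1. PHR1 read 709 in wild type and 648.2 in fe-1 there. Whether the FE probes detect the transgene, the resident gene or both was not tested.

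Among the lists, the CC-type glutaredoxins had the highest median (log2 ratio 2.19): 15 of 20 measured members were higher and 0 lower. These are small oxidoreductases, several of which are known for roles in nitrogen signalling and in interplay with TGA transcription factors. AT4G15700 read 28131 with Dex and 1090 in mock (25.8-fold), AT4G15670 3965 with Dex and 160.4 in mock (24.7-fold), and ROXY2 5755 with Dex and 241.5 in mock (23.8-fold). AT4G15680, AT4G15660 and AT4G15690 were 19.4-fold, 12.9-fold and 11.1-fold higher. The 5 AT4G loci named here are near-identical neighbours, and how far their probes tell them apart was not tested. The other higher members lay between 2.16-fold (AT3G62960) and 9.08-fold (AT3G62930), with ROXY1 at 2.33-fold.

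Nicotianamine and iron genes were mostly level (26 measured, 6 higher, 1 lower, median log2 ratio 0.05), and the exceptions centred on metal chelation and transport. Beside NAS3, NAS4 was 3.99-fold higher. The metal-nicotianamine transporters YSL1 (7739 with Dex, 1145 in mock, 6.76-fold) and YSL3 (22324 with Dex, 4006 in mock, 5.57-fold), the factor BHLH101 (3.01-fold) and the vacuolar nicotianamine carrier ZIF1 (2.72-fold) were also higher. FIT, the root regulator of iron uptake, read 358.3 with Dex and 789.1 in mock.

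Nitrogen genes moved in both directions. Of 19 genes of glutamate and ammonium assimilation 3 were higher and 1 lower: beside GDH3, the glutamine synthetase GLN1;1 (21685 with Dex, 7410 in mock) and the ammonium transporter AMT1;1 (2.11-fold) were higher, and AMT1;2 was 2.86-fold lower. Of 12 measured nitrate genes 1 was higher, the transporter NRT1.2 (5478 with Dex, 1378 in mock), and 3 were lower: NRT1.7, NRT1.5, which loads nitrate into the xylem (2219 with Dex, 5073 in mock), and the nitrate sensor and transporter NRT1.1 (5723 with Dex, 11881 in mock). The nitrate reductases NIA1 and NIA2 had log2 ratios of 0.01 and 0.39. Among 12 measured amino acid transporters 6 were higher and 2 lower (median log2 ratio 1.37). AAP5 read 29472 with Dex and 3778 in mock (7.80-fold), AAP4 14153 with Dex and 2012 in mock (7.04-fold), AAP1 14628 with Dex and 2891 in mock (5.06-fold), and AAP3 2223 with Dex and 527.6 in mock. AAP2, a phloem member of the same family, was level (7001 with Dex, 6800 in mock). Of 9 genes of sulfur assimilation, the adenylylsulfate reductases APR2 (4.79-fold) and APR1 (2.04-fold) were higher and the root sulfate transporter SULTR1;2 was 4.15-fold lower, although its other probe gave a log2 ratio of -0.64.

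Genes of the phloem list were higher or level. Of 26 measured, 6 were higher and 0 lower (median log2 ratio 0.22). SUC2, the sucrose-proton symporter that loads companion cells, read 29355 with Dex and 3200 in mock (9.17-fold), and its 3 probes gave log2 ratios between 2.63 and 3.197. NAKR1, a phloem metal-binding protein needed for long-distance transport of the florigen FT, read 6606 with Dex and 1089 in mock (6.07-fold). The 3 probes of NAKR1 gave log2 ratios between 1.547 and 2.601. AHA3, the companion cell proton pump, was 3.39-fold higher, the DOF factor HCA2 2.72-fold, SMXL3, needed to form phloem, 2.46-fold, and FTIP1, which moves FT out of companion cells, 2.45-fold (1167 with Dex, 475.9 in mock). The sieve element protein gene SEOR1 was level, at 1787 with Dex and 1971 in mock. Other lists hold NRT1.7, SWEET11 and SWEET12, which act in phloem loading and were lower. Outside this list, the phloem protein genes PP2-A11 (log2 ratio -1.81) and PP2-A8 (-1.26) were lower. PP2-B13, PP2-A10, PP2-A9, PP2-B14, PP2-A14 and PP2-B1 were higher, although a probe of PP2-B13 gave -0.197. In whole seedlings, more cells of a type and more RNA per cell cannot be told apart.

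Sugar genes outside the phloem list differed by class. Among 19 genes of sucrose and starch metabolism 4 were higher and 0 lower (median log2 ratio 0.01): the sucrose synthases SUS1 (5446 with Dex, 738.9 in mock), SUS2 and SUS4 and the sucrose phosphate synthase SPS4F (15030 with Dex, 4383 in mock). The probes of 2 of these disagreed, with the second probe at a log2 ratio of -0.12 for SUS2 and 0.09 for SUS4. Of 11 measured SWEET sugar exporters 2 were higher and 3 lower. The lower ones were SWEET11 (3162 with Dex, 7026 in mock) and SWEET12 (523.6 with Dex, 1284 in mock), which release sucrose for phloem loading, and the vacuolar fructose carrier SWEET17 (1070 with Dex, 2565 in mock). The higher ones were SWEET10 (2.60-fold) and SWEET4 (2.15-fold).

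Of 22 measured floral promoters, 3 were higher and 0 lower, against a list median of 0.02 on the log2 scale. FT, the florigen, read 507.7 with Dex and 201 in mock (2.53-fold), and its second probe gave a log2 ratio of 1.02. CO, the photoperiod factor that activates FT in the phloem, read 5297 with Dex and 1167 in mock (4.54-fold), and its second probe gave 1.98. SPL4, a factor of the age pathway, read 2067 with Dex and 536.9 in mock (3.85-fold). TSF, the closest relative of FT, was not well above background in mock, and its log2 ratio lay between -0.06 with median centring and 3.02 with the scanner's processed signals, so no direction is given. SOC1, which acts downstream of FT, read 869.1 with Dex and 1257 in mock. Among 17 floral repressors, BFT was 2.03-fold higher and SMZ 2.03-fold lower, while FLC (426.4 with Dex, 428.3 in mock) and SVP (4079 with Dex, 3847 in mock) were level. Of 20 clock genes, GRP8 was 2.72-fold higher and RVE2 2.29-fold lower, and GI had a log2 ratio of 0.25.

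The 6 RADIALIS-like genes, which encode small single-repeat MYB proteins, all had ratios above 0, and 4 were at least 2-fold higher (median log2 ratio 1.84). RL4 read 4050 with Dex and 755.3 in mock (5.36-fold), RL2 633.3 with Dex and 166.2 in mock, and RL3 1595 with Dex and 471.8 in mock. RL1 was not well above background in mock and was read as 4.71-fold higher with Dex, a value that does not allow for noise in mock.

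The cuticle list lay on the other side. All 12 measured members had ratios below 0, although 2 turned above 0 with median centring, and 6 were at least 2-fold lower with Dex, or 4 with median centring (median log2 ratio -0.87, or -0.75). CUT1, also named KCS6, which elongates wax precursors, read 5049 with Dex and 18259 in mock (3.62-fold lower). The wax synthesis genes CER3 (3667 with Dex, 10793 in mock) and CER2 (1305 with Dex, 3768 in mock), the elongase KCS1 (2.74-fold lower), the acyltransferase GPAT4 of cutin synthesis (2.07-fold) and MYB96, an activator of wax genes (2.06-fold), were lower too. CER1 (log2 ratio -0.18) and MYB94 (-0.03) were nearest to 0.

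Hormone lists gave small counts in both directions. In auxin response GH3.3 (412.4 with Dex, 1155 in mock), IAA2 (2.64-fold) and IAA4 (2.19-fold) were lower and GH3.6 was 2.27-fold higher, out of 15 measured. The type A response regulators of cytokinin ARR16 (1490 with Dex, 400.9 in mock), ARR17 (2.34-fold) and ARR6 (2.04-fold) were higher, out of 14 measured, and 0 of that list were lower. Of 7 gibberellin genes, GA2OX6 was 3.25-fold and GA3OX1 2.56-fold lower. The jasmonate synthesis genes AOC1 (19952 with Dex, 3003 in mock), AOC3 (3.41-fold) and LOX4 (2.01-fold) were higher and the defensin PDF1.2A was 2.45-fold lower, out of 23 measured. Of 12 measured abscisic acid and water stress genes, the homeobox genes HB7 (2.66-fold) and HB12 (2.31-fold) were lower.

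Stress lists were read since the seedlings were submerged, but a stress shared by Dex and mock seedlings would not show in their ratio. Of 11 genes of the low-oxygen response, 10 had ratios above 0 (median log2 ratio 0.36), but past 2-fold were SUS1 and SUS4 alone, and the fermentation genes ADH1 (1969 with Dex, 1485 in mock) and PDC1 (243.7 with Dex, 235.8 in mock) were level. In the touch list TCH2 (3.18-fold) and SZF1 (2.55-fold) were higher and WRKY18 was 3.18-fold lower, out of 15. Of 11 measured salicylate defence genes, PAD4 (4422 with Dex, 1659 in mock) was higher, and WRKY70 (2.51-fold) and ICS1 (2.16-fold) were lower. Of 8 detoxification genes, the glutathione transferases GSTU1 (2.52-fold) and GSTU25 (2.01-fold) were lower. No heat shock gene passed 2-fold (9 measured, median log2 ratio -0.51), nor did any of 17 flavonoid genes (median -0.50), 24 photosynthesis genes, 14 root hair genes, 17 xylem genes, 11 guard cell genes or 9 genes of cell division. The median of the photosynthesis list was 0.10 and changed sign under 3 alternative settings, and 6 of its genes were past 2-fold higher with median centring. With the scanner's processed signals, 3 heat shock genes were past 2-fold lower.

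**Figure D3:**
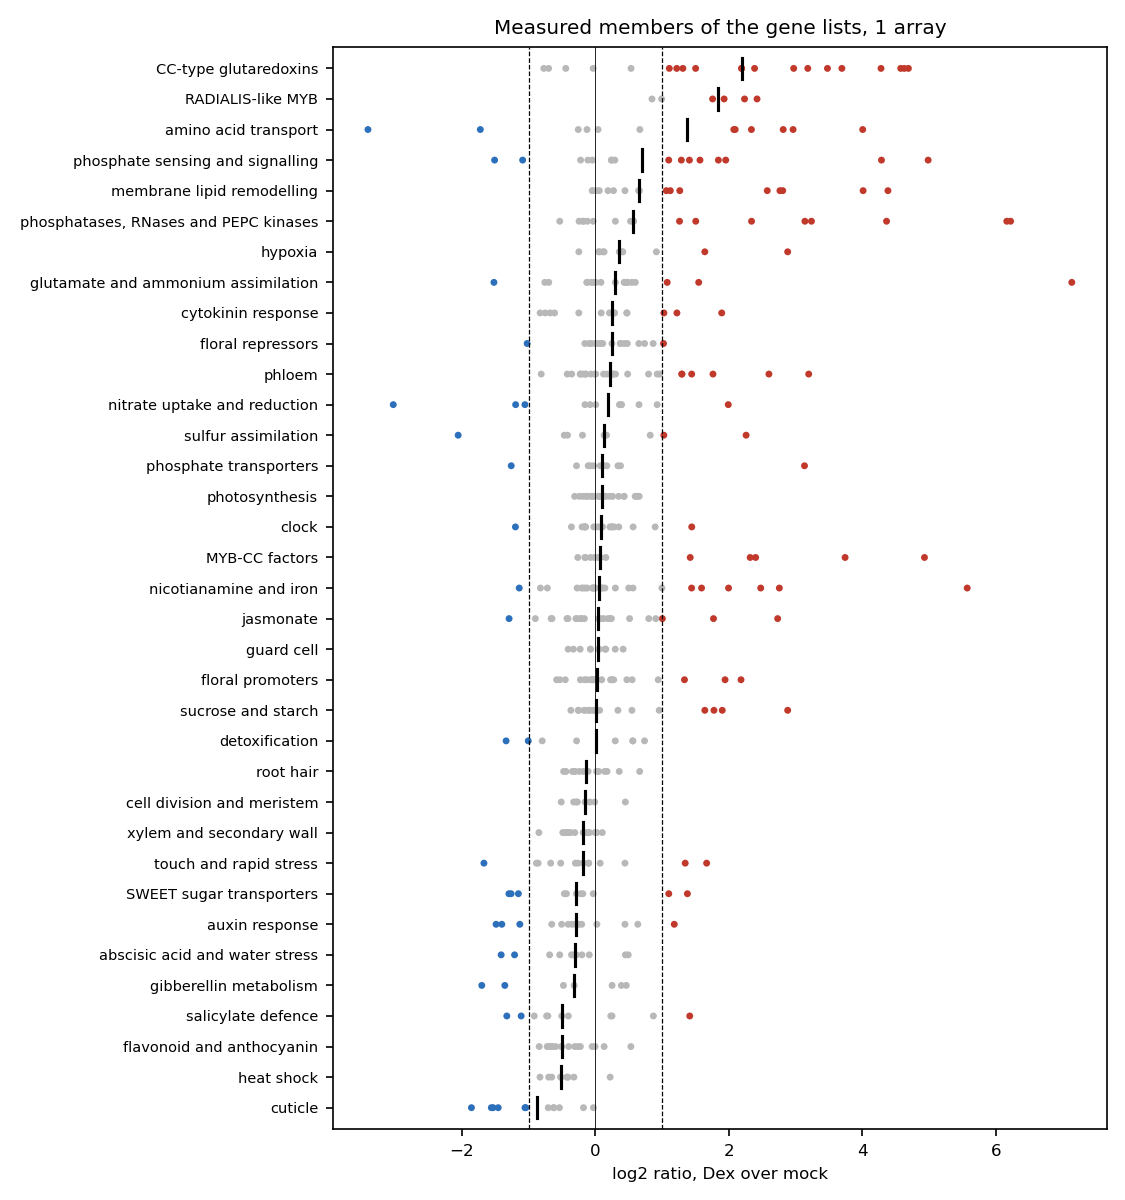
Log2 ratio of Dex over mock for each measured member of the 35 gene lists, ordered by list median (black bar); red points are higher with Dex by 2-fold or more, blue points lower, and dashed lines mark 2-fold. CC-type glutaredoxins (median 2.19) and RADIALIS-like genes (1.84) are at the top, and the cuticle list (-0.87) is at the bottom.

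Large gene families were also counted by symbol, a grouping chosen after the values were seen. Those given are examples picked from the families with at least 10 measured members. Over all measured genes, 2.95% were lower and 3.58% higher. Among 51 measured UGT genes, glycosyltransferases that attach sugars to small molecules, 17 (33.3%) were at least 2-fold lower with Dex and 2 higher (median log2 ratio -0.53), or 11 lower with median centring. Beside UGT72B3, UGT72E1 read 1182 with Dex and 5372 in mock, and UGT74D1 1560 with Dex and 6515 in mock, whereas UGT84A3 read 1978 with Dex and 754.1 in mock. The elongase family KCS had 5 of 18 lower and 0 higher, the GSTU glutathione transferases 5 of 24 lower (3 with median centring) and 1 higher, the ABCG transporters 5 of 35 lower and 1 higher, and the cell wall expansins EXPA 5 of 17 lower and 2 higher. The UMAMIT amino acid exporters had 9 of 34 higher (26.5%) and 4 lower, or 7 lower with the scanner's processed signals. Among other symbols, CYP had 21 of 169 lower and 7 higher, PDF 4 of 13 lower and 0 higher. The lower PDF genes were PDF1.2A, PDF1.2b, PDF1.2c and PDF1.3, and how far their probes tell them apart was not tested. NRT had 3 of 10 lower and 1 higher, and RPS had 0 of 24 lower and 0 higher. Some genes, among them NRT1.7, NRT1.5, NRT1.1, CUT1 and KCS1, were also counted in the lists above.

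The same genes were read on the 2 fe-1 arrays. There, limma called 1840 of 20681 genes higher (8.90%) and 2348 lower (11.4%) in fe-1 than in wild type at an adjusted p under 0.05. Of the 733 genes higher with Dex, 712 were measured, and 155 (21.8%) were called lower and 91 (12.8%) higher in fe-1. Of the 604 genes lower with Dex, 596 were measured, and 121 (20.3%) were called lower and 91 (15.3%) higher in fe-1. In both sets the share called was above that of all genes in each direction. The median log2 ratios (fe-1 over wild type) of the sets were -0.02 and -0.01. Across 19980 genes measured in both, the Dex and fe-1 ratios had a Pearson correlation of 0.0235 and a Spearman correlation of 0.107, a description of arrays that share platform and dye orientation. These limma calls depended strongly on the processing: with plain background subtraction 22 genes were called higher and 116 lower, and with 32 spots of non-uniform background kept, 10 were called higher and 49 lower. With median centring, 13.7% of the Dex-higher genes were called lower and 12.2% higher, against 7.22% and 7.27% of all genes.

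CC-type glutaredoxins and RADIALIS-like genes, high with Dex, were low in fe-1, on arrays where other lists were low as well. Of 14 root hair genes 12 were called lower and 0 higher in fe-1 (median log2 ratio -0.78), with EXPA7 at -1.05 and COBL9 at -1.30, and of 7 heat shock genes 6 were called lower. Seed storage genes were low as well, CRU3 at a mean of -2.40 and CRA1 at -1.93, whereas 9 of 24 photosynthesis genes were called higher and 0 lower. The part of these lists in the results that follow was not tested. On the Dex array the root hair list had a median log2 ratio of -0.14. Of 20 CC-type glutaredoxins 11 were called lower and 0 higher (median log2 ratio of fe-1 over wild type -0.33). Over all genes, 11.4% were called lower and 8.90% higher. The largest fe-1 difference among them was at AT5G18600, 4.57-fold higher with Dex (33823 with Dex, 7409 in mock), with log2 ratios of -3.07 and -2.71 on fe-1 replicates 1 and 2. AT3G62930 gave -0.95 and -1.01 there and AT3G21460 gave -0.93 and -1.16. In contrast AT4G15670 and ROXY2, among the highest with Dex, gave means of 0.07 and 0.09 in fe-1. All 5 RADIALIS-like genes measured in fe-1 were called lower, led by RL4 at -1.55 and -1.79 on fe-1 replicates 1 and 2. RL3 gave -0.578 and -1.427 there, and RL2 -0.279 and -0.15. Of these genes called lower, 2 glutaredoxins and 2 RADIALIS-like genes (RL2 and RL5) did not stand well above background in fe-1. RL5 read 1.72-fold lower and RL2 1.16-fold, values that do not allow for noise in the dim fe-1 channel.

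Of 22 floral promoters measured in fe-1, 6 were called lower and 0 higher. The lists of this paragraph stand against 11.4% of all genes called lower and 8.90% higher. In fe-1, FT did not stand well above background on either array. It read a mean intensity of 67.2 in fe-1 and 155 in wild type, 2.30-fold lower (limma adjusted p = 1.3e-05). This fold does not allow for noise in the dim fe-1 channel. The floral repressors had 4 of 17 called lower and 4 higher, SVP among the higher ones (0.31 and 0.28), and the phloem list had 4 of 26 called lower and 4 higher. FTIP1 gave -0.57 and -0.53, NAKR1 -0.33 and -0.23, and BFT -1.72 and -1.30, and these were called lower. FE itself gave -0.151 and -0.195 in fe-1, a small difference that was called lower (limma adjusted p = 0.0432). CO and SUC2, both higher with Dex, were not called in fe-1, with means of 0.00 and -0.06. Of the amino acid permeases, AAP4 gave -0.74 and -0.68 and AAP1 -0.57 and -0.32 in fe-1. RNS1 (-0.79 and -1.11) and MC3 (-1.08 and -0.99) were also called lower.

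Of the 16 phosphate sensing and signalling genes 2 were called lower and 1 higher in fe-1 (median log2 ratio -0.01). Of the 18 phosphatases, ribonucleases and carboxylase genes 5 were called lower, RNS1 among them, and 2 higher (median -0.02). Of 17 lipid remodelling genes 1 was called lower and 1 higher, of 12 transporters 1 lower and 0 higher, and of 13 MYB-CC factors 3 lower and 0 higher. Over all genes, 11.4% were called lower and 8.90% higher. The counts for phosphate sensing, lipid remodelling and transporters lay near or below those shares. SPX1 gave 0.27 and 0.23, MYR1 -0.29 and -0.08, and PEPC1 0.47 and -0.32, so that the replicates of PEPC1 lay on both sides of 0. GDH3, the highest gene with Dex, was also called higher in fe-1, at 0.81 and 0.94, and NAS3 gave 0.32 and 0.42. PDF1.2A was low in both comparisons, at -1.55 and -1.71 in fe-1, and the cuticle gene CUT1, low with Dex, was not called in fe-1 (mean -0.14).

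**Figure D4:**
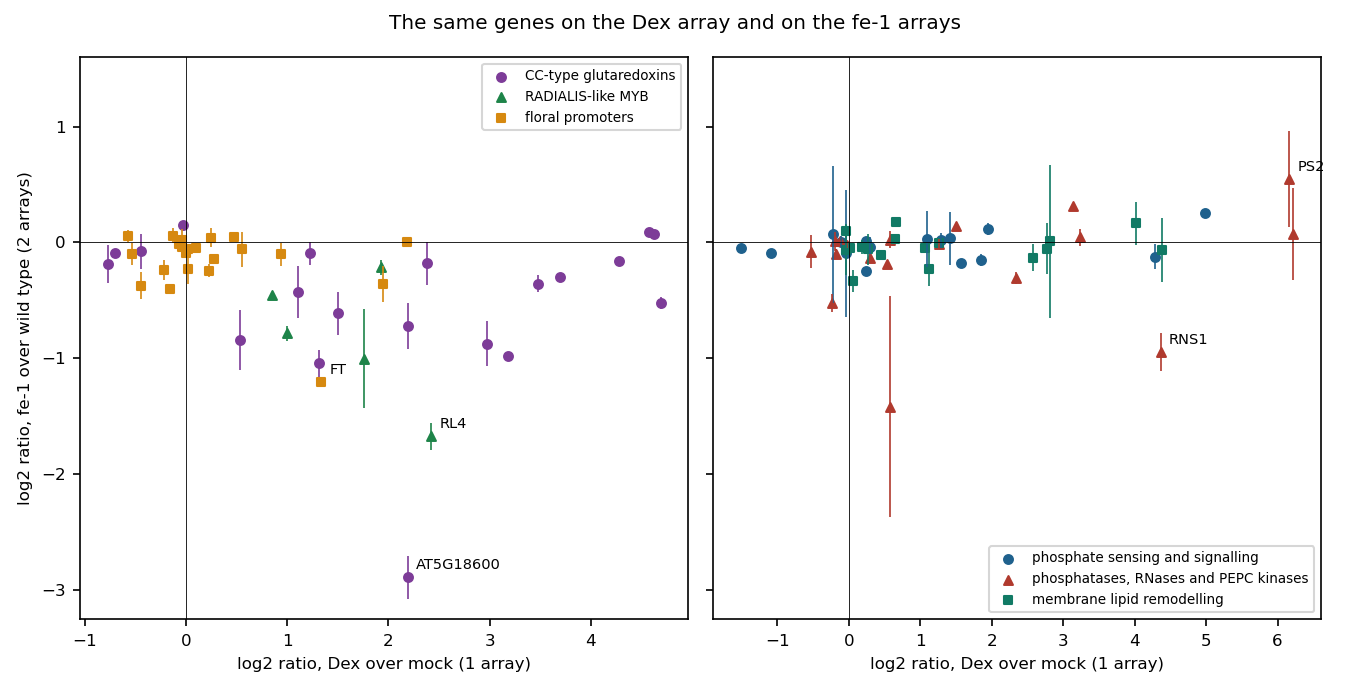
Log2 ratio of fe-1 over wild type (vertical axis, point at the mean of 2 arrays, vertical line over both arrays) against log2 ratio of Dex over mock (horizontal axis, 1 array) for members of 6 lists. AT5G18600, RL4, FT and RNS1 (mean -0.95 in fe-1) lie at the lower right, PS2 (mean 0.55 in fe-1) lies at the upper right, and FT, RL2, RL5 and 2 of the glutaredoxins called lower did not stand well above background in fe-1.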

How the data were processed

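Per the labels, total RNA of whole seedlings was labelled with Cy5 or Cy3 and hybridised to Agilent arrays, and the submitters' processing notes name Agilent Feature Extraction 10.7. The deposited scanner files hold an intensity per spot and channel, with local background, and the deposited value table holds log2 values, Cy5 over Cy3. Per the file headers, the scanner software also wrote a log10 ratio of red over green for each spot. Converted to log2, it matched the value table to within 0.005.

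Median signals were corrected for median local background with normexp (offset 50) and normalised by loess within each array in limma 3.58.1 (R 4.3.3), with control spots and outliers given weight 0. Spots with non-uniform background were left out first. Spots of a probe were averaged. Probes well above background in at least 1 channel of the Dex array, or in at least 2 of the 4 channels of the fe-1 arrays, were kept. The brightest kept probe stood for its gene. Where one channel was not well above background, the fold was taken to the larger of that channel's reading and the lowest intensity well above background. Such a fold does not allow for noise in the dim channel, and for FT and RL2 in fe-1 it equals the observed ratio. In fe-1 it used channel intensities after loess and Aquantile scaling. Without a dye swap it may carry a dye effect. Accessions matched 34285 of 43603 probes to loci of the TAIR10.1 gene table. Coordinates are left out because the array's annotation names a build that differs from it.

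The fe-1 ratios were tested against 0 with limma's moderated test over 20681 genes, with Benjamini-Hochberg adjustment. Each gene had 1 residual degree of freedom, and the moderated test added 6.54 prior degrees of freedom pooled over all genes. The labels give nothing beyond biological replicate numbers. These p-values therefore rest on the spread between those 2 arrays, mostly as pooled over genes, and on no further replication. The Dex array had no test. Both fe-1 arrays lay on one slide and the Dex array on another, so slide and comparison cannot be told apart. Normalisation and the limma test were tried on simulated data, where no limit was set on false calls among the brightest probes. Named genes were the 30 highest and 30 lowest on the Dex array, list members past 2-fold, and FE, FT, TSF, FTIP1, NAKR1, CO, SOC1, FLC, SVP, GI, SUC2 and PHR1; members given as level or in fe-1 were added as examples. The gene lists and comparisons were chosen with earlier results of these data known. The number of arrays limits the precision.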

Additional observations from a re-analysis of the deposited data

How the results depend on the processing

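No paired analysis was possible because the Dex comparison is a single array. The promoter motif alternatives were not run, since no promoter sequence was used here. The 30 highest and 30 lowest genes stayed at least 2-fold, in the same direction, in every setting tried, and 155 of 177 named genes kept their side of 2-fold. Of the others, 16 came out under 2-fold with median centring (log2 ratios of PHO1 -0.78, NRT1.1 -0.71, FIT -0.90, SWEET11 -0.81 and GPAT4 -0.72 among them), and 6 with a gene's probes averaged (PHO2 0.86, PPCK1 0.93 and SUS4 0.56 among them). Of 35 list medians, 28 kept their sign. Genes at least 2-fold lower with Dex numbered 1066 with plain background subtraction, 1212 with processed signals, 1226 (and 1101 higher) in the value table and 389 with median centring. At 1.5-fold, 1425 were higher and 1654 lower, and at 4-fold, 212 and 55. In fe-1, each setting changed both the Dex sets and the calls, given here as lower and higher. With plain subtraction they were 12 and 7 of 970 Dex-higher genes (1.24% and 0.722%) and 7 and 2 of 1037 Dex-lower genes (0.675% and 0.193%), against 0.562% and 0.107% of all genes. With processed signals they were 49 and 31 of 1000 and 52 and 11 of 1167, against 1.99% and 0.672%. With median centring they were 147 and 131 of 1074 (13.7% and 12.2%) and 60 and 59 of 383 (15.7% and 15.4%), against 7.22% and 7.27%. With non-uniform background spots kept they were 5 and 0 of 712 and 3 and 2 of 598, against 0.237% and 0.0483%. The value table gave 0 limma calls in each, and 6036 genes in all at an unadjusted p under 0.05. With the variances fitted robustly and those spots kept, a setting chosen after seeing the data, they were 5 and 0, and 4 and 2; with those spots left out, robust fitting moved none of the counts by over 1.5 times. Without one fe-1 replicate there is no test, so genes past 1.5-fold were counted. Of Dex-higher genes, 25 to 33 (3.51% to 4.63%) were lower and 8 to 12 (1.12% to 1.69%) higher. Of Dex-lower genes, 9 to 13 (1.51% to 2.18%) were lower and 10 to 15 (1.68% to 2.52%) higher. Over all genes, 1.02% to 1.4% were lower and 0.29% to 0.522% higher. The cause of these differences was not tested. Probes with no locus added 86 higher and 45 lower of 4849 kept.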
